A study of Bos grunniens with 3 samples.

Results

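Keratin 77 is a type II keratin that is made in the upper living layers of the skin epidermis. The cells described here are the suprabasal cells of yak skin that were high in KRT77, called late cells below. They were chosen by measured UMI counts of 3 keratin genes in each of the 3 single-cell libraries, as cells with at least 200 detected genes, with KRT1 and KRT10 together making up at least 1.5% of the unique molecular identifiers (UMIs) of the cell, and with at least 3 UMIs of KRT77. This gave 641 late cells of 38551 cells with at least 200 genes, 227 of 11987 in anagen, 337 of 12062 in catagen and 77 of 14502 in telogen. The 5888 cells that met the KRT1 and KRT10 criterion but held 2 KRT77 UMIs or fewer were called early cells (1761 in anagen, 1640 in catagen and 2487 in telogen) and were the main point of comparison.

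The libraries came from scapular skin of healthy Tianzhu white yaks (Bos grunniens) of about 2 years, and each library stood for a single stage of the hair cycle: anagen (growth), catagen (regression) or telogen (rest). No genetic change or treatment was given for any of the animals. Single hair follicles were pulled from skin strips that had been loosened with dispase, and trypsin then freed their cells, so that epidermis was present to the extent that it came away with a follicle. The study's methods name 3 yaks without tying an animal to a library, and the protocol given for the catagen library names anagen although its title and stage label say catagen. With 1 library per stage there were no replicates. Therefore no test between stages was possible. None was run between late and early cells, because measured values chose them. Every interval below covers counting error only, and stage, animal and library cannot be told apart.

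In the epidermis, keratinocytes leave the basal layer, where KRT5 and KRT14 form the keratin network, and replace these with KRT1 and KRT10 in the spinous layers. Towards the granular layer they make the proteins that are later cross-linked by transglutaminases into the cornified envelope, the enzymes that build the acylceramides of the water barrier, and the proteases and inhibitors that time the shedding of dead cells. KRT77 stands next to KRT1 and KRT2 in the gene order of the RefSeq yak annotation (assembly Bosgru_T2T1.0), inside the type II keratin cluster. The upper part of the follicle, the infundibulum, is lined by a related stratified epithelium, and KRT79 is a known marker of its suprabasal cells.

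The 3 genes of the rule are given first as a description, since they chose the cells. Levels are UMIs of a gene summed over all cells of a class in a library and scaled to a class total of 1000000 UMIs (CPM). KRT77 was at 543, 1353 and 397 CPM in the late cells of anagen, catagen and telogen, at 19.8, 40.6 and 12.3 CPM in the early cells and at 6.96, 9.903 and 3.43 CPM in all other kept cells. Late cells held 68.5, 85.5 and 46.2% of all KRT77 UMIs of kept cells. KRT1 was at 20729, 17146 and 25898 CPM in late and at 17703, 18519 and 24089 CPM in early cells, and KRT10 was at 18318, 27291 and 23064 CPM in late and at 13309, 16906 and 16624 CPM in early cells. The catagen late cells stood apart in carrying the most KRT77 and the least KRT1. There were 1.59 KRT10 UMIs per KRT1 UMI in the late cells of catagen, against 0.884 in anagen and 0.891 in telogen, and the corresponding ratios in early cells were 0.913, 0.752 and 0.690.

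Late cells made up 1.89% of kept cells in anagen (95% exact binomial interval 1.66 to 2.15%), 2.79% in catagen (2.51 to 3.104%) and 0.531% in telogen (0.419 to 0.663%). Of the KRT1+KRT10 cells themselves, 11.4% were late in anagen (10.1 to 12.9%), 17.0% in catagen (15.4 to 18.8%) and 3.003% in telogen (2.38 to 3.74%), while KRT1+KRT10 cells were 16.6, 16.4 and 17.7% of kept cells. The 3 libraries thus held near-equal shares of KRT1+KRT10 cells and unequal shares of late cells, with catagen highest and telogen lowest and no overlap of the counting intervals. A count of UMIs favours deep cells, and this bears on every share. The median late cell held 11429, 8569 and 13153 UMIs in anagen, catagen and telogen, against 7162, 4617 and 7588 UMIs for the median early cell and 4880, 3113 and 5209 UMIs for the median of the other cells. Cells were also first thinned to 3000 UMIs, which leaves out cells with fewer. Of the KRT1+KRT10 cells, 57 of 1786 in anagen (3.19%), 179 of 1458 in catagen (12.3%) and 16 of 2042 in telogen (0.784%) were then late. The order of the libraries was the same.

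At the edges of the rule, 49 late cells of anagen, 58 of catagen and 26 of telogen held exactly 3 KRT77 UMIs, and 73, 89 and 57 early cells held 2. The cells just inside this edge had a median of 2.81, 4.59 and 2.46 KRT77 UMIs per 10000, and those just outside had 2.33, 3.36 and 1.95. A further 28, 24 and 21 cells held at least 3 KRT77 UMIs but too little KRT1 and KRT10. Free RNA can put UMIs of an abundant gene into any droplet, so cells that should lack these keratins were read in the same way. In cells marked by at least 3 UMIs of endothelial genes, KRT1 was at 764, 122 and 2091 CPM and KRT10 at 770.2, 306 and 1156 CPM in anagen, catagen and telogen, and both together made up 0.0418, 0.0204 and 0.0483% of the UMIs of the median such cell. None of these 67, 23 and 35 cells, at median depths of 3935, 2397 and 4426 UMIs, held 3 KRT77 UMIs. By an approximate limit of 3 over the number of cells, this allows shares of up to about 4.48, 13.04 and 8.57%. None of the 159, 118 and 61 cells rich in inner root sheath keratins, at 4840, 8875 and 15686 UMIs, held 3 KRT77 UMIs either. The same limit allows up to about 1.89, 2.54 and 4.92% there. KRT77 summed over the endothelial-marked cells was at 11.1, 15.3 and 3.44 CPM. Barcodes shared between libraries numbered 43, 40 and 49 for the 3 pairs of libraries, and no barcode was late in both.

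Of the 3202 genes with at least 20 CPM in late or early cells of each library, the rule genes left out, 95 were at least 2-fold higher in late cells in anagen (2.97%), 172 in catagen (5.37%) and 146 in telogen (4.56%). At least 2-fold lower were 18 (0.562%), 31 (0.968%) and 67 (2.09%). In all 3 libraries 69 genes were higher (2.15%, 57 of them with a gene symbol) and 10 were lower (0.312%, 6 with a symbol). Of the 69, 29 passed the 20 CPM limit in 1 library or more only through the late cells, and of the 10, 5 did so only through the early cells, so that the counts below are a description. With median-of-ratios scaling 128 were higher and 47 lower in catagen and 117 and 84 in telogen, and after thinning 172 were higher and 185 lower in anagen. Fold changes were taken as log2 of the ratio of the CPM values with 10 CPM added to each, and the median over all 3202 genes was 0.00, 0.15 and 0.11. Because late cells were deeper, the early cells were also reweighted to the UMI totals of the late cells. Then 64 genes were higher and 10 were lower in all 3 libraries, of which 63 and 8 were among those named by the unweighted comparison.

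Among symbol-bearing genes that reached 50 CPM in the late or the early cells of every library, those furthest above early cells in all 3 libraries were CCHCR1, CNFN, C5orf46, SERPINA12, BPIFC, DGAT2, LYPD5, PDZK1IP1, KRT2, LY6G6C, SPINK5 and GSDMA, in this order of the smallest of the 3 log2 ratios. SPINK5 encodes LEKTI, the inhibitor that holds the kallikreins of desquamation in check. It was at 4015, 7592 and 4909 CPM in late cells and at 1257, 1654 and 1161 CPM in early cells, and its log2 ratios were 1.67, 2.19 and 2.07. In anagen that was 3.195-fold (3.12 to 3.27), in catagen 4.59-fold (4.49 to 4.69) and in telogen 4.23-fold (4.11 to 4.35), as plain CPM ratios with exact 95% counting intervals. The lowest late level lay above the highest early level, and SPINK5 had a UMI in every late cell of the 3 libraries.

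**Figure D1:**
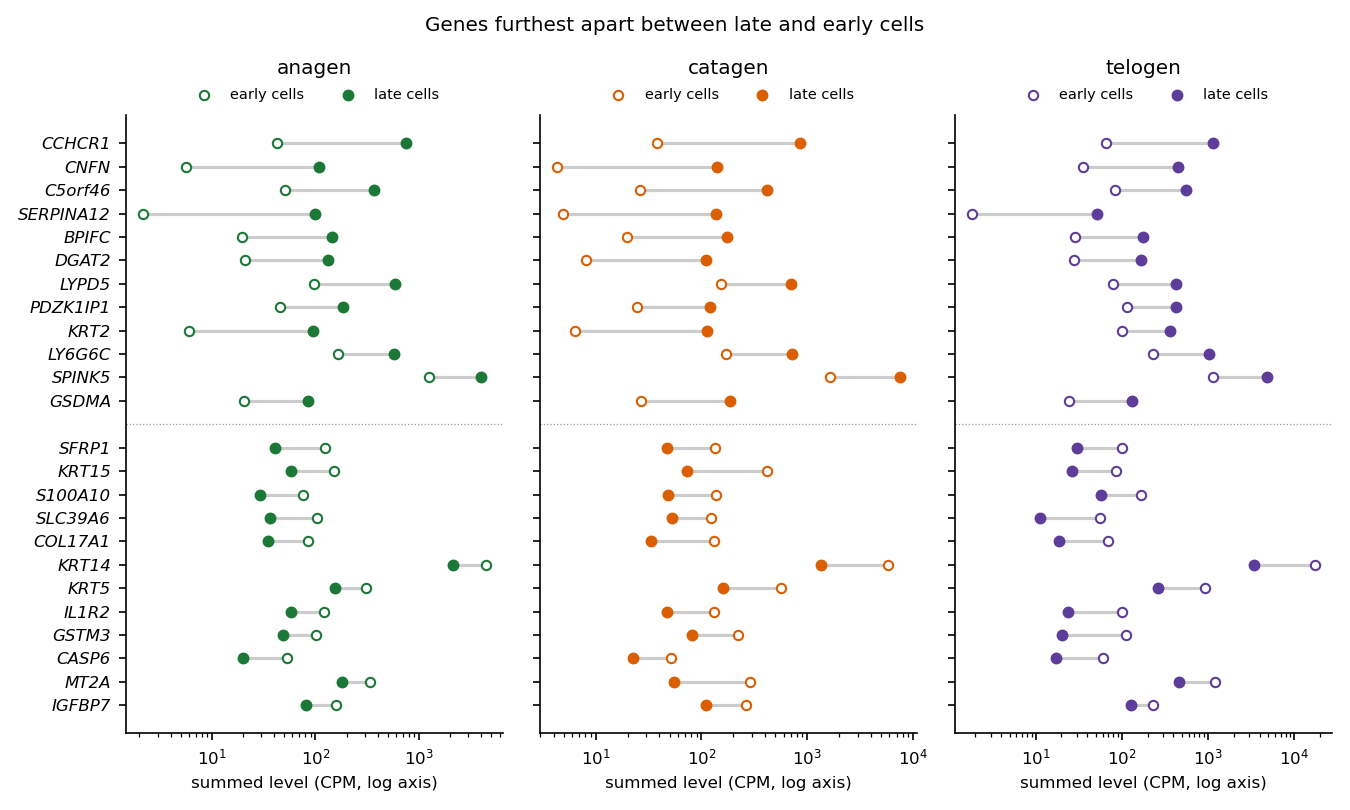
Summed levels (CPM, log axes) of the 12 genes furthest higher and the 12 furthest lower in late cells, with late cells as filled and early cells as open points, 1 panel per library. In each panel late points lie right of early points above the dotted line and left of them below it. The panels have their own axis ranges.

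CNFN encodes cornifelin, a protein of the cornified envelope. It was at 108, 140.3 and 448 CPM in late and at 5.603, 4.33 and 35.9 CPM in early cells. KRT2, the type II keratin of the upper spinous and granular layers, was at 95.3, 112 and 368 CPM in late, 5.96, 6.43 and 101 CPM in early and 0.318, 0.695 and 2.25 CPM in other cells. The telogen library thus held KRT2 in its early cells too, at about the level that late cells reached in the other libraries. LYPD5 and LY6G6C, both of the family of small GPI-anchored Ly6 proteins, were at 587, 704 and 427 and at 569.7, 726 and 1039.7 CPM in late cells, against 96.5, 154 and 78.6 and 165, 170.5 and 234 CPM in early cells. BPIFC, of the lipid-binding BPI fold family, was at 144, 175 and 179 CPM in late and 19.7, 19.7 and 28.9 CPM in early cells. GSDMA, the epidermal gasdermin, was at 85.5, 188 and 132 against 20.3, 26.7 and 24.4 CPM. Its level in the other cells of the libraries, 59.7, 64.7 and 60.2 CPM, lay above that of early cells.

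C5orf46, listed as C7H5orf46 next to SPINK5 in the gene order of the annotation, was at 364, 421 and 559 CPM in late and at 50.9, 26.5 and 83.6 CPM in early cells. SERPINA12 encodes vaspin, a serine protease inhibitor that acts on KLK7. It was at 100.1, 138 and 51.3 CPM in late cells and at 2.16, 4.95 and 1.82 CPM in early cells. PDZK1IP1, a small membrane protein, was at 184, 120.1 and 425 against 46.05, 24.5 and 117 CPM. As a description of genes chosen for this distance, the lowest late level lay above the highest early level of the 3 libraries for each but KRT2, narrowly so for PDZK1IP1. All of them but LYPD5, LY6G6C and SPINK5 reached the 50 CPM limit in 1 library or more only through late cells.

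CCHCR1 had the largest ratios. It was at 751, 863 and 1151 CPM in late cells, at 42.7, 37.7 and 66.01 CPM in early cells and at 124, 152 and 144 CPM in the other cells, and its log2 ratios were 3.85, 4.19 and 3.93. CCHCR1 encodes a coiled-coil protein and lies beside PSORS1C2 and CDSN in the gene order. CDSN encodes corneodesmosin, an adhesive protein of late epidermal differentiation, and its own row held 25.97, 106 and 13.5 CPM in the late cells rich in CCHCR1 described below and 0, 0.397 and 2.29 CPM in the remaining late cells. Whether UMIs counted for CCHCR1 came from its neighbours was not tested, so its level is uncertain as a measure of that gene.

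The cornified envelope list held 50 genes, of which 19 had a row under their symbol and 11 were high enough to compare. LOR, FLG, IVL and other classical members were not analysed here for want of such a row. All 11 were above 0 in the 3 libraries, as were 37.8% of all genes, and 6 were at least 2-fold higher in each (CNFN, KRT2, KRT80, LYPD5, SBSN and TGM1), beside 2.15% of all genes. CNFN, KRT2 and TGM1 passed the 20 CPM limit in 1 library or more only through late cells, and the list median, 1.47 as the mean of the libraries, was 0.79 with no limit on levels. The list medians were 1.17, 1.45 and 1.77 in anagen, catagen and telogen, against 0.00, 0.15 and 0.11 over all genes. SBSN, suprabasin, was at 12843, 9598 and 11229.9 CPM in late and 5544, 2669.7 and 2931 CPM in early cells. TGM1, the membrane-bound transglutaminase that cross-links the envelope, was at 31.9, 40.8 and 49.6 CPM against 4.24, 2.598 and 4.72 CPM. KRTDAP, a marker of differentiated keratinocytes that is already abundant in the spinous layers, differed far less, at 12209.6, 8149.8 and 13866 CPM in late and 9510.2, 4787 and 9643 CPM in early cells. The plakins EVPL and PPL, which anchor the envelope at desmosomes, had log2 ratios of 0.65, 0.47 and 0.72 and 0.94, 0.90 and 1.26, and SCEL, sciellin, had 0.99, 1.19 and 1.399.

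Of the desquamation list, 24 of 35 genes had a row and 5 were compared, of which SERPINA12, SERPINB8 and SPINK5 were at least 2-fold higher in all 3 libraries, beside 2.15% of all genes. SERPINA12 passed the 20 CPM limit only through its late cells. The median ratios of the 5 were 1.67, 1.43 and 2.07, and as the mean of the libraries the median was 1.84, against 0.46 over the list with no limit on levels. SERPINB8, another serine protease inhibitor, was at 116, 92.3 and 175 CPM in late and 42.3, 28.1 and 60.2 CPM in early cells. KLK7, the chymotryptic kallikrein of the horny layer, varied far more by library, with 1177, 103 and 5578 CPM in late cells and 262, 59.8 and 851 CPM in early cells. Its log2 ratio was 0.70 in catagen against 2.12 and 2.699 in anagen and telogen. In catagen 12.5% of late cells had a KLK7 UMI and 1 cell held 35.5% of these UMIs, so that the catagen ratio rests on few cells. PRSS22 had ratios of -0.11, 0.09 and 0.22.

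Of the envelope, desquamation and barrier lipid lists, the last had the most genes compared, 19, with 34 of its 39 genes present. Of these 19, 18 were above 0 in the 3 libraries, beside 37.8% of all genes, and 8 were at least 2-fold higher in each, beside 2.15%: ALOX12B, ALOXE3, CERS3, DGAT2, ELOVL4, PLBD1, SDR9C7 and SULT2B1. Of these 8, CERS3, ELOVL4 and SULT2B1 had at least 20 CPM in early cells of each library and the other 5 passed this limit in 1 library or more only through late cells, so that their call followed in part from it. The medians were 0.88, 1.42 and 1.13, and no compared member was 2-fold lower in any library. As the mean of the libraries the median was 1.25, against 0.55 with no limit on levels. ELOVL4 makes the ultra-long fatty acids of the acylceramides and was at 381, 512 and 448 CPM in late and 119, 75.6 and 93.8 CPM in early cells. CERS3, the ceramide synthase that uses these fatty acids, was at 274, 457 and 183 against 120.3, 129 and 86.1 CPM. The levels of both kept above those of early cells in every library. ALOX12B and ALOXE3, the lipoxygenases that oxidise the linoleate of acylceramides, were at 26.5, 53.4 and 53.9 CPM and 33.3, 61.00 and 45.4 CPM in late cells. Early cells held only 0.7902, 1.98 and 3.41 CPM and 3.23, 4.701 and 3.78 CPM of them. SDR9C7, which acts after the lipoxygenases, was at 65.5, 107 and 75.3 CPM in late and 12.4, 33.5 and 12.6 CPM in early cells.

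DGAT2, which makes triglycerides, was at 132, 110 and 169 CPM in late and 20.9, 8.04 and 28.1 CPM in early cells, and SULT2B1, the cholesterol sulfotransferase, was at 305, 196 and 223 CPM against 129, 34.1 and 70.9 CPM. ABCA12, the transporter that loads lamellar bodies with lipid, moved less, with ratios of 0.33, 0.92 and 1.003. Enzymes of the general sphingolipid route were uneven. UGCG, which makes glucosylceramide, had ratios of 0.88, 1.38 and 1.54, whereas SPTLC1, of the first step, had 0.35, 0.55 and 0.38. FABP5, the epidermal fatty acid binding protein, was the only member below 0 in a library, with 0.27, 1.14 and -0.19.

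**Figure D2:**
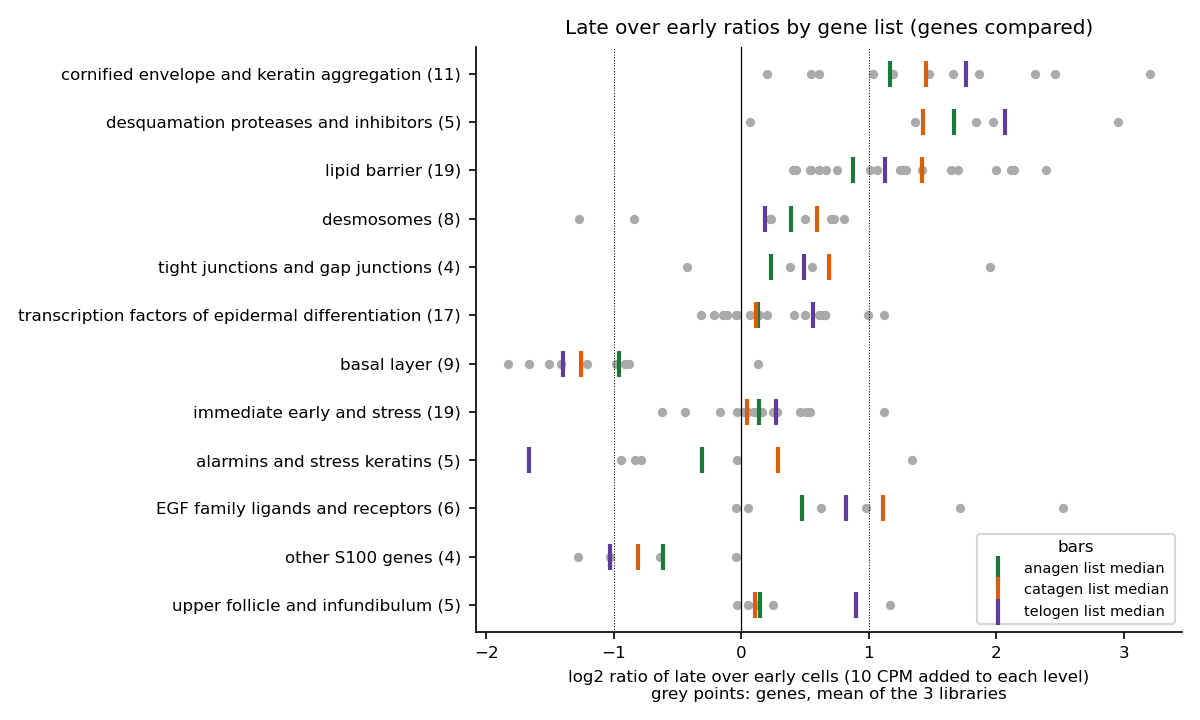
Log2 ratios of late over early cells for gene lists with at least 4 genes compared (number in brackets). Grey points are genes as the mean of 3 libraries, coloured bars are the list medians of anagen, catagen and telogen, and dotted lines mark 2-fold. The envelope, desquamation and lipid lists lie right of 0 and the basal layer list lies left of it.

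Of 13 desmosomal genes, 8 were compared. The desmosomal cadherins DSG1 and DSC1, which belong to the suprabasal layers, were at 1329.7, 2630.2 and 1556 and 288, 738 and 359 CPM in late cells against 825, 1335 and 1084 and 174, 349 and 222 CPM in early cells. DSG2 and DSC2, which are also made in basal and simple epithelia, lay the other way, with ratios of -0.85, -1.23 and -1.74 and -0.89, -0.90 and -0.74. None of the 8 was 2-fold apart in all 3 libraries, beside 2.15% higher and 0.312% lower of all genes, and the list medians were 0.39, 0.60 and 0.19. CLDN4, a claudin of tight junctions, was at 6138, 2869 and 1759 CPM in late and 2663, 720 and 268 CPM in early cells, with ratios of 1.202, 1.98 and 2.67. It was the only one of 4 junction genes compared that was 2-fold higher in each library. CLDN1 had ratios of 0.24, 0.74 and 0.17, and GJA1, connexin 43, had -0.35, -0.30 and -0.62.

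Among 17 transcription factors of epidermal differentiation that were compared, none was 2-fold apart in all 3 libraries, beside 2.15% and 0.312% of all genes. PRDM1, or Blimp1, a factor of the granular layer, was at 223, 109.7 and 58.2 CPM in late and 123, 37.4 and 19.1 CPM in early cells, with ratios of 0.81, 1.34 and 1.23. GRHL1, a regulator of desmosomal cadherins, was at 159, 247 and 174 against 94.4, 109 and 70.2 CPM. The ratios of KLF4, which drives barrier formation, were 0.46, 0.68 and 0.82, and those of ZNF750, which acts with it, were 0.42, 0.63 and 0.93. All of these were above 0 in each library without reaching 2-fold in all of them. POU2F3 had 0.39, 0.77 and 0.74, RORA 0.38, 0.53 and 0.60 and GRHL3 0.13, 0.75 and 0.95. KLF5 had -0.44, -0.41 and -0.11, which is below 0 in each library. EHF (0.18, -0.12 and 0.54), GATA3 (0.04, 0.10 and -0.25), HES1 (0.04, 0.12 and 0.26), ID1 (-0.04, -0.32 and 0.57), ID2 (0.34, 0.03 and 0.86), NFE2L2 (-0.31, 0.20 and -0.33) and TFAP2A (-0.03, -0.32 and 0.23) are the others reported here. Of the Notch pathway only HES1 and JAG1 were compared, and JAG1 had -0.09, -0.03 and -0.07.

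Of the EGF family, 6 of 13 genes were compared. EREG, epiregulin, was at 228, 226 and 42.8 CPM in late and 42.2, 11.8 and 3.78 CPM in early cells, and BTC, betacellulin, was at 171, 61.3 and 213 against 48.8, 10.5 and 56.96 CPM. These 2 were 2-fold higher in each library, beside 2.15% of all genes, and both passed the 20 CPM limit in 1 library or more only through their late cells. AREG, amphiregulin, was abundant in both classes, with 2444, 1639 and 742 CPM in late and 1519, 601 and 416 CPM in early cells. Late levels of AREG and EREG were lowest in telogen, whereas BTC was lowest in catagen. The feedback inhibitor ERRFI1 had ratios of -0.24, -0.01 and 0.12, and the list medians were 0.48, 1.11 and 0.82, or 0.80 as the mean of the libraries, against 0.31 with no limit on levels.

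By the same rule the 12 genes furthest below early cells were led by SFRP1 and KRT15, and KRT5, KRT14, KRT15 and COL17A1 among them belong to the basal layer list. KRT14, the main type I keratin of basal cells, was at 2125, 1341 and 3448 CPM in late cells, 4417, 5798 and 17515 CPM in early cells and 12287, 13754 and 21263 CPM in other cells. KRT15 was at 57.7, 72.7 and 26.5 CPM against 152, 414 and 85.6 CPM, and KRT5, the partner of KRT14, at 153, 159 and 267 against 307, 569.9 and 939.5 CPM. In each library late cells were lowest, early cells intermediate and the remaining cells highest. COL17A1, the hemidesmosomal collagen, was at 35.3, 33.5 and 18.8 CPM in late and 85.2, 131 and 70.2 CPM in early cells, and SFRP1, a secreted WNT antagonist, was at 40.4, 46.8 and 29.9 against 125, 135 and 100.2 CPM. KRT14, KRT15 and COL17A1 were the 3 of 9 basal genes that were at least 2-fold lower in all 3 libraries, beside 0.312% of all genes. COL17A1 passed the 20 CPM limit in telogen only through its early cells, and the list median, -1.21 as the mean of the libraries, was -0.58 with no limit on levels. Of the 9, 8 were below 0 throughout, as were 21.2% of all genes, and the medians were -0.96, -1.26 and -1.396. CD9 was the exception, with ratios of 0.04, 0.41 and -0.06.

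Outside the basal layer list, S100A10, an annexin partner, was at 29.5, 48.7 and 58.2 CPM in late and 76.2, 138 and 167 CPM in early cells. SLC39A6, a zinc importer, was at 36.6, 53.1 and 11.1 against 103, 123 and 55.6 CPM. IL1R2, the decoy receptor of interleukin-1, was at 57.7, 47.1 and 23.96 against 121, 130.4 and 101 CPM. The metallothionein MT2A had ratios of -0.88, -2.19 and -1.39, GSTM3, a glutathione transferase, -0.95, -1.34 and -2.01, IGFBP7, which binds insulin-like growth factors, -0.89, -1.18 and -0.83 and CASP6, an effector caspase, -1.07, -0.91 and -1.397. Of these 12, chosen for the lowest ratios, 6 reached 2-fold in all 3 libraries. Ribosomal protein genes, 29 of which carried a symbol, took 10.95, 10.5 and 13.1% of the UMIs of late cells and 12.5, 12.8 and 15.2% of those of early cells. Dissociation can raise stress genes, and of 19 immediate early and stress genes none was 2-fold apart in all 3 libraries, beside 2.15% higher and 0.312% lower of all genes (medians 0.14, 0.04 and 0.27). JUN, for example, was at 3516, 4667 and 1619 CPM in late and 2967, 4511 and 1518 CPM in early cells.

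Alarmin levels rested in part on few cells. S100A7, psoriasin, was at 23175, 1878 and 13881 CPM in late and 13580.4, 257 and 10308 CPM in early cells, with ratios of 0.77, 2.82 and 0.43. S100A8 and S100A9, the subunits of calprotectin, had ratios of -0.31, 0.29 and -2.48 and -1.004, -0.15 and -1.67, and S100A12 had -0.98, 0.30 and -1.68. In catagen 1 late cell held 67.9% of the S100A8, 43.3% of the S100A9 and 41.6% of the S100A12 UMIs of late cells, counted for each gene on its own, so that the catagen ratios of S100A8 and S100A12 above 0 rest largely on single cells. All 4 were lowest in the catagen library in early cells. The interleukin-1 family held 3 compared genes, with IL18 at 0.31, 0.57 and 0.53 and IL1R1 at -0.55, -0.74 and -0.99 beside IL1R2 above. Retinoid handling was represented by BCO2 (0.59, 0.78 and 0.51) and RARG (0.19, 0.33 and 0.17), and S100A2, S100A4 and S100A16 had ratios of -0.86, -0.76 and -1.49, -0.37, -0.86 and -0.69 and -0.08, 0.28 and -0.33. In telogen 1 late cell held 75.6% of the S100A4 UMIs. A mitotic gene, CENPF, had ratios of -0.35, -0.05 and -2.09, resting on 1 UMI in the telogen late cells, and the replication gene MCM7 had -0.29, -0.34 and -0.03.

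The markers of other cell types were read over whole lists, except those of sweat gland and duct, which are given singly. Of 8 endothelial markers 7 had a row, 5 of these were at 0 in all late cells, KDR was the most abundant, and they summed to 3.05, 2.53 and 10.3 CPM in late cells. The 5 melanocyte markers with a row, of 7, summed to 2.38, 3.48 and 2.57 CPM, with 3 of them at 0. The 2 of 5 erythrocyte markers with a row were at 0 throughout. Immune markers (6 of 9 with a row) summed to 11.2, 31.3 and 9.41 CPM, with CD74 the most abundant and 2 at 0, and pericyte and muscle markers (6 of 6) to 13.2, 13.9 and 20.5 CPM, led by TAGLN. Little RNA of non-epithelial cells was thus seen in late cells. Mesenchymal markers (8 of 9) summed to 90.6, 2.21 and 1.71 CPM, led by COL1A2. In anagen, 261 of the 267 mesenchymal UMIs of late cells lay in 1 cell, and leaving out cells with at least 3 such UMIs gave 69 genes higher and 11 lower in all 3 libraries.

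Follicle markers were more frequent. Inner root sheath markers (6 of 7, led by KRT27) summed to 311, 72.4 and 26.5 CPM in late cells against 227, 149 and 71.8 CPM in early and 2446, 2921 and 1236 CPM in other cells. Hair cortex markers (2 of 6, led by KRT85) summed to 106, 61.6 and 41.9 CPM in late cells, the companion layer marker KRT75 to 10.5, 33.5 and 13.7 CPM, and bulge and outer sheath markers (7 of 8, led by SOX9) to 552, 239.6 and 693 CPM. In early cells these 3 lists summed to 159, 26.97 and 33.2, to 20.5, 14.1 and 23.6 and to 607, 444 and 624 CPM. In the other cells they summed to 1204, 603 and 383, to 229.8, 402 and 209 and to 1972, 2039.6 and 1906 CPM. Sebaceous markers (12 of 14, led by MGST1) summed to 69.9, 118 and 161 CPM in late, 101, 85.4 and 119.7 CPM in early and 238, 131 and 207 CPM in other cells, so that late cells lay above early cells in catagen and telogen. KRT77 is also known from the ducts of eccrine sweat glands. Of the sweat gland and duct markers, AQP5, FOXA1 and FOXI1 were at 0 in all late cells. SCNN1B, a subunit of the epithelial sodium channel, was at 12.9, 15.8 and 22.2 CPM in late and 5.96, 5.94 and 9.34 CPM in early cells, and CFTR, a chloride channel, at 12.6, 13.9 and 1.71 against 11.2, 4.45 and 1.91 CPM. The simple-epithelial keratins KRT7 and KRT18 were at 3.39, 3.79 and 11.1 and 5.77, 0.316 and 0 CPM in late and 50.4, 69.8 and 70.8 and 11.8, 5.58 and 2.93 CPM in other cells. The part of these cells in the late over early ratios was not tested.

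Levels were then followed along KRT77 itself. KRT1+KRT10 cells were thinned to 3000 UMIs and binned by the KRT77 UMIs left, with 1054, 215, 113, 43 and 27 cells in the catagen bins of 0, 1 to 2, 3 to 5, 6 to 10 and at least 11 UMIs. This uses the gene that chose the cells and is a description. In catagen SPINK5 was at 1391, 4952, 7861, 8434 and 9259 CPM from the lowest to the highest bin. ELOVL4 was at 66.7, 312, 552, 667 and 716 CPM. Both were higher in each successive bin, with the largest steps at the low end.

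KRT14 in the same bins was at 6367, 1335, 655, 512 and 667 CPM, so that most of its difference lay between cells without and with any KRT77. In anagen KRT14 was at 4461, 2117 and 1248 CPM in the bins of 1516, 206 and 47 cells, and in telogen at 17104, 4142 and 1167 CPM in bins of 1892, 117 and 16 cells. The telogen bin of 3 to 5 UMIs and the higher bins of anagen and telogen held fewer than 20 cells. KRT10, by contrast, was higher with more KRT77 in catagen, at 16572 CPM in cells without and 36827 CPM in cells with at least 11 KRT77 UMIs, while KRT1 was at 18472 and 18864 CPM in these bins.

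**Figure D3:**
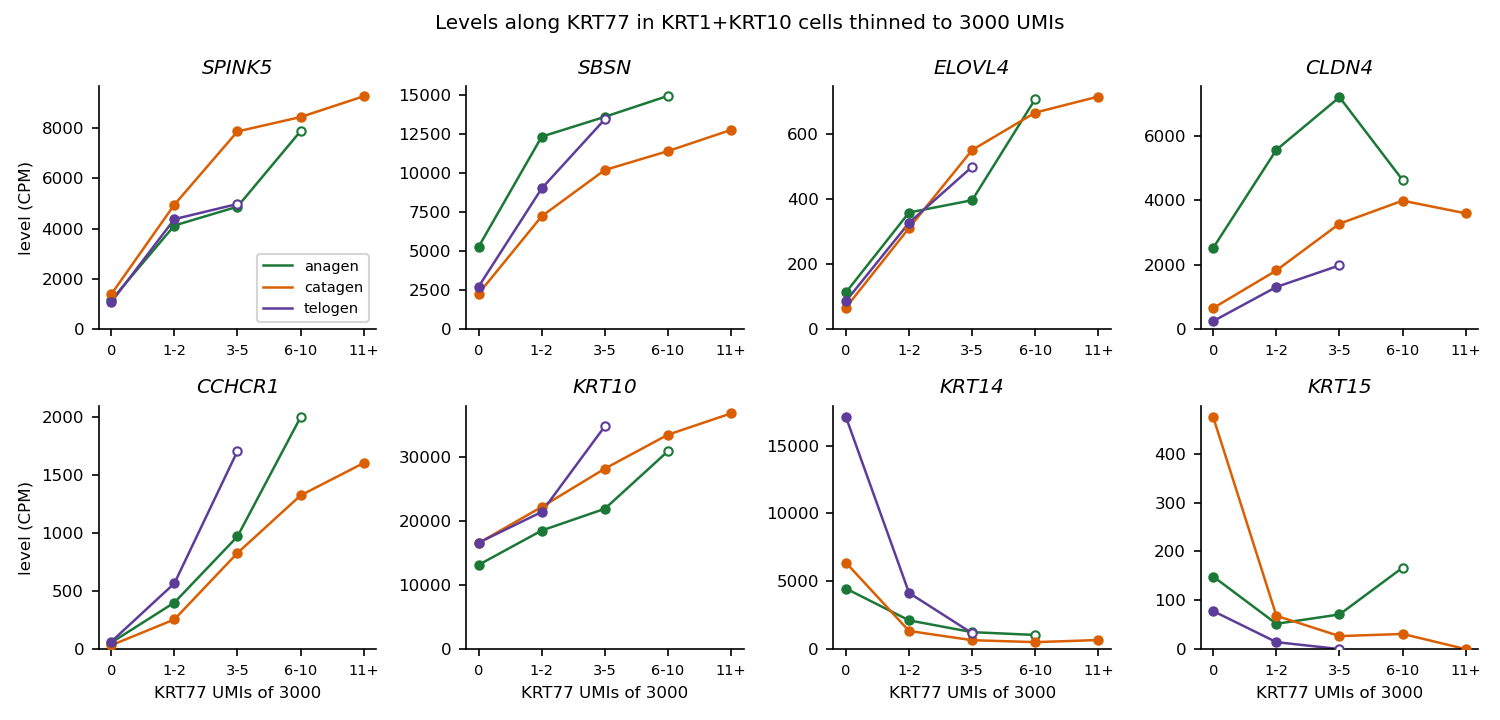
Levels (CPM) of 8 genes in KRT1+KRT10 cells thinned to 3000 UMIs, binned by KRT77 UMIs, with 1 line per library. Filled points stand for bins of at least 20 cells and open points for bins of 5 to 19, and smaller bins are left out. SPINK5, SBSN, ELOVL4, CCHCR1 and KRT10 are higher with more KRT77, and KRT14 is lower in cells with 1 to 2 KRT77 UMIs than in cells with none in every library.

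Late cells were not uniform among themselves. SPINK5 and SBSN had a UMI in every late cell, and the tenth of late cells richest in each held 30.3, 34.7 and 33.3% of the SPINK5 UMIs and 31.1, 31.5 and 27.99% of the SBSN UMIs. CCHCR1, CNFN, KRT2, SERPINA12, ALOX12B and TGM1 were concentrated. The tenth of cells richest in each held 81.9, 72.2 and 70.4% of the CCHCR1 UMIs, 84.5, 93.9 and 59.1% of the CNFN UMIs and 93.6, 96.9 and 96.3% of the KRT2 UMIs. For SERPINA12 these shares were 78.6, 79.5 and 91.7%, for ALOX12B 80.8, 81.1 and 63.5% and for TGM1 80.9, 83.7 and 70.7%. In telogen, 1 cell held 48.4% of all KRT2 UMIs of late cells and 1 cell held 36.7% of all SERPINA12 UMIs. The ratios of these genes therefore rest on few cells.

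To describe the concentrated genes, late cells with at least 10 CCHCR1 UMIs per 10000 were set beside the other late cells, a division made after the levels had been seen. They numbered 34 of 227 in anagen (14.98%, interval 10.6 to 20.3%), 68 of 337 in catagen (20.2%, 16.02 to 24.9%) and 19 of 77 in telogen (24.7%, 15.6 to 35.8%). Among early cells 1.08, 1.95 and 1.45% passed the same mark, at median depths of 3762, 798 and 8965.5 UMIs. The median depth was 12081, 9216 and 14797 UMIs in the late cells high in CCHCR1 and 11231, 8283 and 12769 UMIs in the others.

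Several of the genes named above were far higher in these cells. CNFN was at 609, 647 and 1265 CPM in them and at 23.4, 11.1 and 171 CPM in the other late cells. TGM1 was at 161, 159 and 162 against 10.3, 10.7 and 11.5 CPM, and ALOX12B at 146, 213 and 169 against 6.34, 12.7 and 14.9 CPM. SERPINA12 was at 522, 512 and 196 against 29.3, 43.2 and 2.29 CPM. The remaining late cells lay above the early cells and below the high cells in every library for CNFN, TGM1 and ALOX12B, and for SERPINA12 in anagen and catagen, while its telogen level in the remaining cells rests on 2 UMIs. SPINK5 differed less, at 8210.3, 14991 and 7654 against 3311, 5705 and 3980 CPM, and SBSN was at 21543, 18124 and 15172 against 11383, 7424 and 9896 CPM. DSC2 and SYNE2, the latter a nuclear envelope spectrin-repeat protein, were lower in the high cells, with DSC2 at 49.6, 63.8 and 67.7 against 181, 307 and 278 CPM and SYNE2 at 127, 384 and 213 against 551, 1714 and 756 CPM. KRT77 was at 925, 1979 and 443 CPM in the high cells and 478, 1193 and 381 CPM in the others. In catagen KRT1 was at 9229 CPM in the high cells against 19165 CPM in the others.

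**Figure D4:**
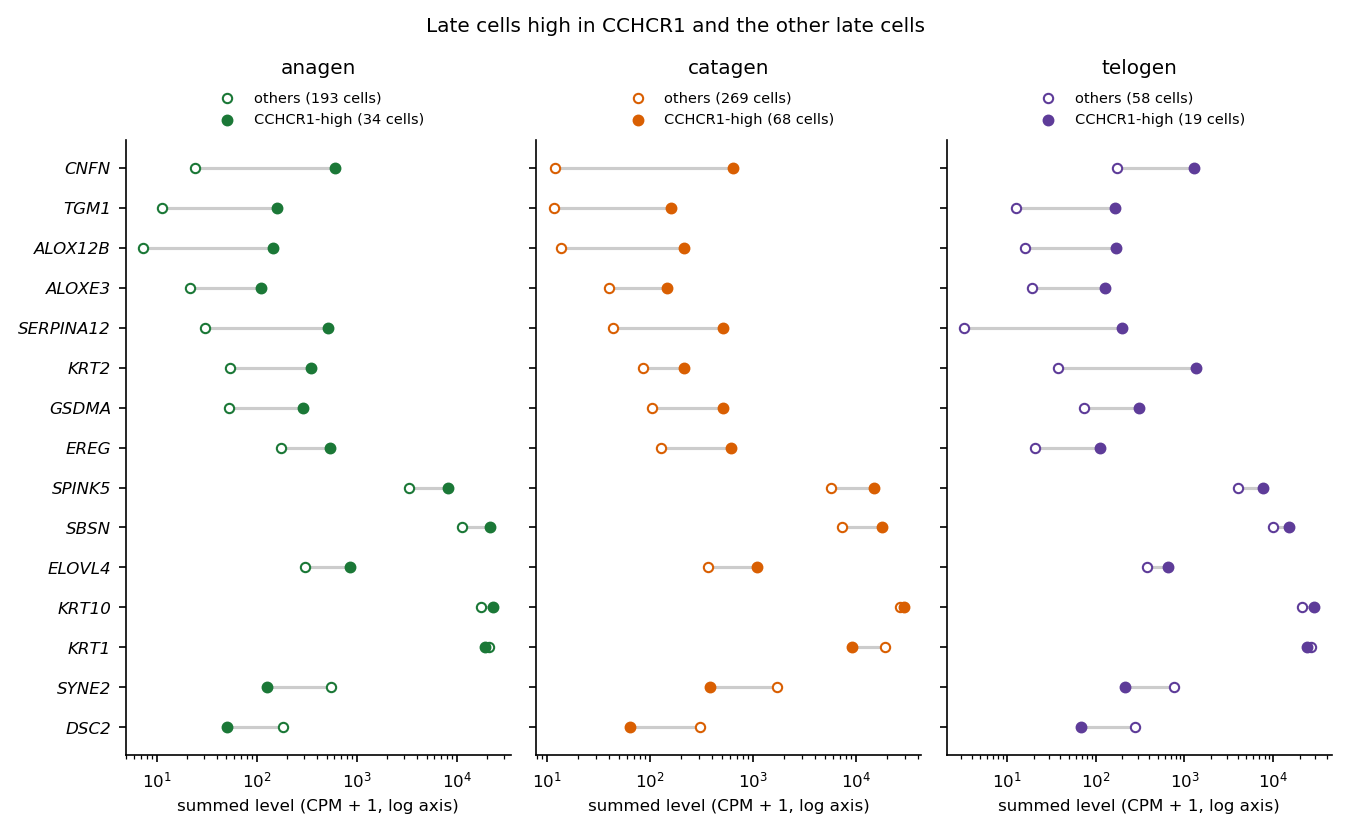
Summed levels (CPM + 1, log axes) of 15 genes in late cells with at least 10 CCHCR1 UMIs per 10000 (filled) and in the other late cells (open), 1 panel per library. CNFN, TGM1, ALOX12B and SERPINA12 are far apart and DSC2 and SYNE2 lie the other way in each panel.

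The label of these cells as epidermal was checked against KRT79 and the other upper follicle markers. Of the 13 markers 7 had a row, and they summed to 4054, 1267 and 12756 CPM in late, 4157, 2078 and 6316 CPM in early and 6499, 5301 and 7302 CPM in other cells, led by KRT17. The 5 compared had medians of 0.14, 0.11 and 0.90, and the sum of late cells lay above that of early cells in telogen alone. At least 1 KRT79 UMI was seen in 18 of 227 late cells in anagen (7.93%, interval 4.77 to 12.2%), in 30 of 337 in catagen (8.90%, 6.09 to 12.5%) and in 55 of 77 in telogen (71.4%, 60.0 to 81.2%). After thinning to 3000 UMIs the shares were 5.48, 7.76 and 68.8% of late cells and 4.55, 5.58 and 19.4% of early cells. In the telogen endothelial-marked cells, which should lack it, the thinned share was 7.41% of 27 cells (interval 0.9100 to 24.3%). In telogen most late cells therefore carried a marker of the suprabasal infundibulum, which goes against the epidermal label there. In anagen and catagen few did, but KRT17 had a UMI in 91.2 and 56.4% of the late cells there. Whether the late cells of these 2 libraries came from epidermis or from upper follicle was not tested.

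Several genes of late cells differed by KRT79 in the same direction in each library. KRT17, a keratin of the outer root sheath and upper follicle, was at 13085, 3818 and 13385 CPM in late cells with KRT79 and at 2160.5, 610.3 and 3182 CPM in those without. SOX9, a transcription factor of the follicle, was at 1685, 422 and 679 against 170.4, 96.5 and 159 CPM, and KLK7 at 2229, 724 and 7127 against 1039, 42.7 and 1255 CPM. These 3 genes were higher with KRT79 in every library. KRT10 was at 9678, 20922 and 18106 CPM with and 19451, 27914 and 36898 CPM without KRT79, and KRT2 at 0, 28.4 and 9.298 against 108, 120 and 1369 CPM. S100A7 was at 8365, 625 and 7712 against 25118, 2000.2 and 31096 CPM. These 3 were lower with KRT79 in every library, and KRT2 was not seen in the 18 anagen cells with KRT79. SPINK5, at 3551, 11146 and 5207 against 4076, 7244 and 4077 CPM, took no common direction. The split was chosen after the levels had been seen, and KRT79 itself may go unseen in shallow cells.

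**Figure D5:**
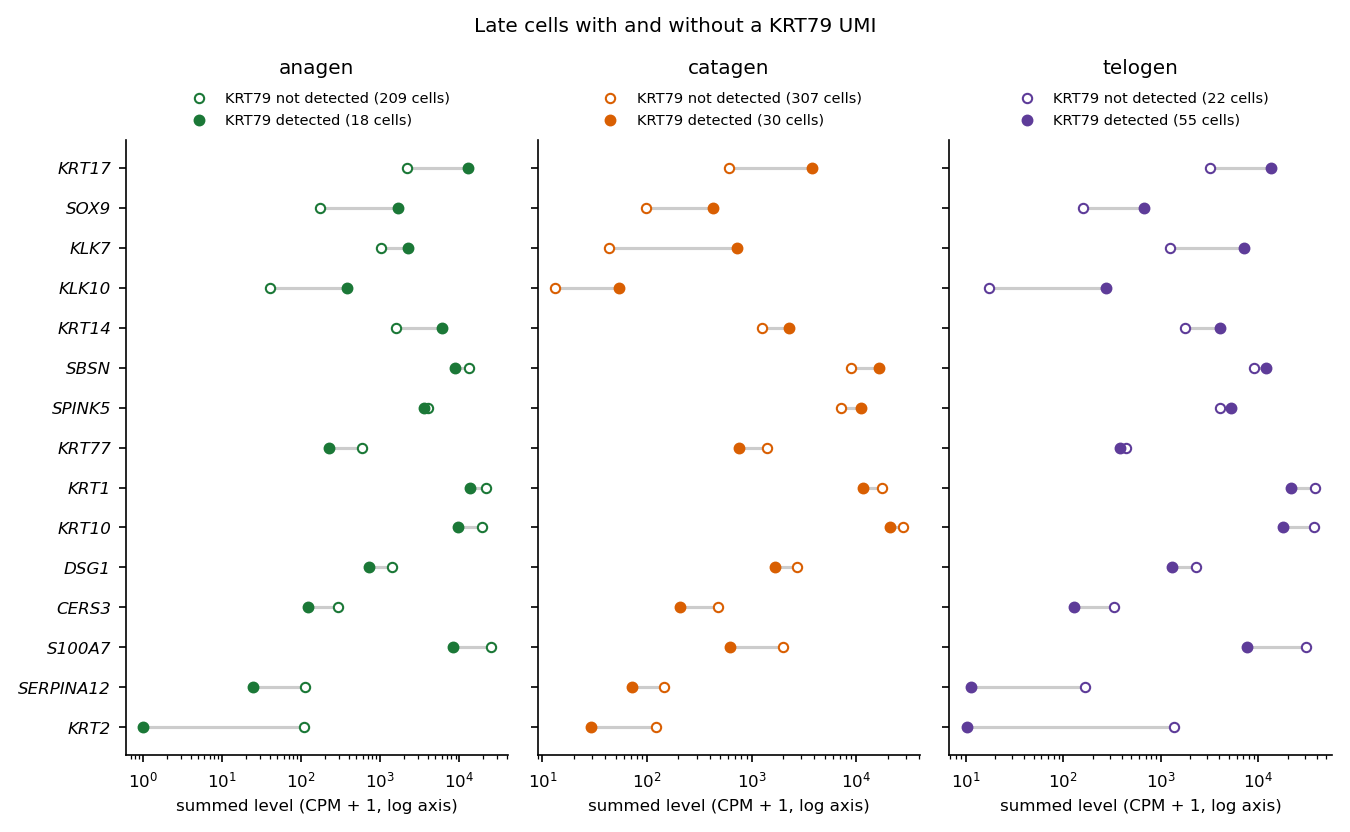
Summed levels (CPM + 1, log axes) of 15 genes in late cells with at least 1 KRT79 UMI (filled) and with none (open), 1 panel per library with the number of cells. KRT17, SOX9, KLK7 and KRT14 lie right with KRT79, and KRT1, KRT10, S100A7 and KRT2 lie left, in each panel.

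With all cells holding a KRT79 UMI left out, 22 late cells remained in telogen and 209 and 307 in anagen and catagen. Then 86 genes were at least 2-fold higher in all 3 libraries, 65 of the former 69 among them, and 14 were lower, including all former 10. The log2 ratio of CCHCR1 became 4.66 as the mean of the libraries, against 3.99 with all cells. In telogen some ratios changed sign without these cells. That of ID1 became -0.31, S100A4 0.76, PRSS22 -0.39, NFE2L2 0.07, MCM7 0.34 and SOX9 -0.01. The S100A4 value rests largely on 1 cell, which held 75.6% of the S100A4 UMIs of all telogen late cells. The late share of KRT1+KRT10 cells was 1.12% in telogen in this setting, against 11.2% in anagen and 16.6% in catagen.

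Stages were compared in late cells with 1 library each, so that each difference compares libraries. Between catagen and anagen late cells, 145 genes of 4095 were at least 2-fold higher (3.54%) and 182 lower (4.44%), and in early cells 73 of 3878 were higher (1.88%) and 201 lower (5.18%). Telogen against anagen late cells gave 144 of 3985 higher (3.61%) and 226 lower (5.67%), and telogen against catagen 234 of 4147 higher (5.64%) and 271 lower (6.53%). In early cells the same comparisons gave 2.31% higher and 5.92% lower against anagen and 5.81% higher and 4.62% lower against catagen. These comparisons share libraries. The balance of higher and lower genes depended on the processing. Telogen over catagen turned to 273 higher and 227 lower with median-of-ratios scaling, to 75 and 70 with 50 CPM added and to 1089 and 943 after thinning. Catagen over anagen became 109 higher and 214 lower with median-of-ratios scaling, 336 and 267 with 1 CPM added, 174 and 173 with at least 5 KRT77 UMIs and 452 and 362 after thinning, and telogen over anagen became 1213 and 931 after thinning. The genes are named below by how far 1 library stood from the nearer of the other libraries, with the early cells beside them.

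The late cells of anagen were higher in ITPKC, BHLHE40, ETS2 and GADD45A. ITPKC, an inositol trisphosphate kinase, was at 908, 167 and 109.5 CPM in late cells of anagen, catagen and telogen and at 885, 149 and 59.4 CPM in early cells. ETS2, a transcription factor, was at 695, 224 and 81.3 CPM in late and 744, 201 and 112 CPM in early cells. BHLHE40, a circadian repressor, was at 396, 111 and 92.4 against 413, 174 and 95.99 CPM, and GADD45A, a stress-response gene, at 250.1, 81.2 and 70.2 against 365, 107 and 98.5 CPM. All 4 were high in anagen in the early cells as well. Lower in anagen were KIF21A, KRT80, QPCT and TXNIP. KRT80, a keratin of differentiating cells, was at 63.4, 170.4 and 168 CPM in late and 22.7, 55.9 and 41.1 CPM in early cells, and TXNIP, the thioredoxin-interacting protein, was at 219, 506 and 768 CPM in late and 271, 718 and 943 CPM in early cells. KIF21A, a kinesin, and QPCT, glutaminyl cyclase, were at 79.1, 375 and 175 and 106, 252 and 395 CPM in late and 60.9, 249 and 89.2 and 49.9, 117 and 122 CPM in early cells. In cells without a KRT79 UMI the distance of anagen below the nearer library fell under 2-fold for KRT80 (log2 -0.33 against -1.27 with all late cells) and KIF21A (-0.38 against -1.06). After thinning to 3000 UMIs the distance was under 2-fold for BHLHE40 (0.89 against 1.75), GADD45A (0.90 against 1.51) and KRT80 (-0.47).

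The late cells of catagen were lower in S100A7, KLK7, AQP3 and KRT17. S100A7 was at 1878 CPM there, against 23175 and 13881 CPM in anagen and telogen. The telogen sum was carried by a minority, since the tenth of late cells richest in S100A7 held 60.3% of its UMIs there, and the median late cell held 168, 7.01 and 1.68 S100A7 UMIs per 10000, lowest in telogen. AQP3, the glycerol channel of the epidermis, was at 3767, 426 and 1943 CPM in late and 5178, 478 and 2031 CPM in early cells, so that catagen was lowest in both classes. Higher in catagen were BTG2, PRDX1, PTPN13 and SYNE2. BTG2, an antiproliferative gene, was at 55.6, 176 and 55.6 CPM in late and 52.4, 203 and 44.3 CPM in early cells, and PRDX1, a peroxiredoxin, at 37.3, 164 and 45.4 against 52.1, 180.4 and 96.9 CPM. SYNE2 was at 490.3, 1444 and 619 against 1019, 2214 and 854 CPM, and PTPN13, a tyrosine phosphatase, at 77.02, 229 and 63.3 against 58.6, 104 and 37.9 CPM. For each of these genes the early cells had the same library at the extreme.

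The late cells of telogen were higher in KRT79, KLK7, KRT17 and KRT2. KRT79 was at 64.8, 108 and 1253 CPM in late and 31.5, 91.5 and 222 CPM in early cells, and KRT17 at 3428, 896 and 10693 against 3674, 1682 and 5722 CPM. In cells without a KRT79 UMI, the telogen excess over the nearer library was 0.27 on the log2 scale for KLK7 and 0.56 for KRT17, against 2.23 and 1.64 with all late cells, whereas that of KRT2 was 3.41 against 1.63, with 1 cell holding 48.4% of the KRT2 UMIs of telogen late cells. Lower in telogen were CCNL1, a cyclin of splicing speckles, IFRD1, RND3, a small GTPase, and SLC12A2, the sodium-potassium-chloride cotransporter. CCNL1 was at 654, 409 and 85.6 CPM in late and 708, 416 and 104 CPM in early cells, and RND3 at 445, 287 and 47.9 against 419, 274 and 64.8 CPM. IFRD1, a transcriptional co-regulator, was at 264, 278 and 72.7 against 222, 138 and 51.1 CPM, and SLC12A2 at 296, 504 and 83.00 against 208, 285 and 65.8 CPM. All 4 were lowest in telogen in the early cells too.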

How the data were processed

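The authors deposited 1 matrix of UMI counts per library, whole numbers per gene and cell, made with Cell Ranger from droplet 3′ libraries and already limited to called cells. The submitters' processing notes name version 2.1.1, while the file headers name 4.0.0 in the anagen, 3.1.0 in the catagen and 6.0.2 in the telogen library. The genome build and annotation release are not given in the sources used here, and the study's article describes anagen and catagen only. The gene identifiers of the matrices are of the Ensembl form (ENSBGRG), whereas the gene order quoted above is that of the RefSeq annotation. Whether the gene order is the same in both was not checked. A different version or cell call per library can change depth and stage differences. The matrices held 12000, 12124 and 14573 barcodes and 82862998, 51647865 and 103511775 UMIs over 26924 genes, of which 15765 carry a symbol. Every UMI total was at least 2404 in anagen and 500 in catagen and telogen.

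Cells with under 200 genes (13, 62 and 71) were left out. The deposited counts were summed per class and library, scaled to CPM and compared as log2 of the ratio with 10 CPM added, over genes with at least 20 CPM in either class of each library. With 1 library per stage and cells chosen by measured values, no test was run. Intervals are exact (Clopper-Pearson for shares, conditional binomial for ratios, 95%) and cover counting error only. The ratio and interval code was tested on simulated data.

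The members, the 17 gene lists and the markers were chosen with earlier results of these data known. Of 387 list genes 284 had a row. Named are the 12 genes with the highest lowest and the 12 with the lowest highest log2 ratio of the 3 libraries (at least 50 CPM in either class of each library), the 4 highest and 4 lowest per stage against the nearer library (at the same limit), transcription factors at 20 CPM or more, and examples from each list. Doublets were not removed. Leaving out the highest 5% of Scrublet scores (scanpy 1.11.5) was an alternative. Python 3.11.15, numpy 2.4.6 and scipy 1.17.1 were used. Sequences and coordinates were not used here. Some transcription factors that met the rule above and the sweat gland marker list as a whole are not reported here.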

Additional observations from a re-analysis of the deposited data

Results flagged for a closer look

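Some genes lay on opposite sides of early cells in different libraries by at least 0.5 on the log2 scale, with counting intervals that excluded equal levels. With 1 library per stage these differences were not tested, and the intervals count each UMI as independent even where few cells hold most of them. KRT17 had a log2 ratio of late over early cells of 0.90 in telogen and -0.90 in catagen. SOX9 had 1.08 in telogen and -0.57 in catagen. In catagen the tenth of late cells richest in each gene held 78.4% of the KRT17 and 74.3% of the SOX9 UMIs. In telogen these shares were 39.5 and 38.7%. In cells without a KRT79 UMI the ratios of KRT17 were -0.58, -0.91 and 0.44 and those of SOX9 -0.41, -0.65 and -0.01 in anagen, catagen and telogen, so that the telogen values were not above 0.5 there. KRT75, the companion layer keratin, had 0.85 in catagen against -0.57 in anagen and -0.50 in telogen, and KRT85, a hair cortex keratin, had 0.85 in catagen and -0.59 in anagen. Both are markers of follicle layers at low levels in late cells.

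Cells with at least 3 KRT77 UMIs that missed the KRT1 and KRT10 criterion were counted among the other cells and described nowhere on their own. They numbered 28 in anagen, 24 in catagen and 21 in telogen. They held SBSN at 11605, 17138 and 8506 CPM, SPINK5 at 3875, 11901 and 3973 CPM and CCHCR1 at 546, 2437 and 961 CPM. KRT17 was at 7162, 4770.1 and 11804 CPM and KRT79 at 226, 345 and 765 CPM in them. SPINK5, SBSN and CCHCR1 were thus above the early cells in each library, and KRT17 was above the late cells in each.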

How the results depend on the processing

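No test was run, so no paired fit was made. For the 24 genes named by late over early ratios, 372 of 456 alternative values stayed within the SD of the 3 libraries and 84 moved by more. All kept the sign of the main value, and moves towards and away from 0 were not counted apart. For the genes named by stage, 379 of 408 stayed within 0.5 on the log2 scale and 29 moved by more. Those under 2-fold were KRT80 and KIF21A in anagen without cells holding KRT79, at -0.33 and -0.38, KLK7 and KRT17 in telogen as given above, KRT79 itself, which that setting sets to 0, and after thinning KRT80 (-0.47), BHLHE40 (0.89) and GADD45A (0.90) in anagen and BTG2 (0.54) and SYNE2 (0.62) in catagen. Medians were followed under the alternatives only for the envelope, desquamation, lipid, desmosome, transcription factor, basal, immediate early, alarmin, EGF family and upper follicle lists. None of these medians changed sign except that of the upper follicle list, 0.11. It became -0.03 after thinning and -0.22 without cells holding KRT79. The balance of higher and lower genes between libraries turned in the settings given with those counts, and that of anagen late over early cells after thinning. The late share of KRT1+KRT10 cells stayed highest in catagen and lowest in telogen in every setting that chose the cells anew. Telogen values rest on 77 late cells. The planned comparison of the KRT77 protein with other keratins was not run.

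Shares of late cells depended on the rule. They are given as late cells among kept cells and, after "or", among KRT1+KRT10 cells, both in percent. With at least 1000 genes per cell they were 2.45 or 12.99% in anagen, 5.73 or 25.5% in catagen and 0.842 or 3.99% in telogen. With KRT1 and KRT10 at 3% or more they were 1.33 or 18.8% in anagen, 2.36 or 23.7% in catagen and 0.3103% of kept cells in telogen. With at least 5 KRT77 UMIs they were 1.15 or 6.94% in anagen, 1.998 or 12.2% in catagen and 0.241 or 1.37% in telogen, with KRT77 judged by its share of UMIs 1.201 or 7.24% in anagen and 0.255 or 1.44% in telogen, and after thinning to 3000 UMIs 0.576 or 3.19% in anagen, 12.3% of KRT1+KRT10 cells in catagen and 0.1601 or 0.784% in telogen. With the smallest anagen UMI total required everywhere they were 4.11 or 21.4% in catagen and 0.7299% of kept cells in telogen, without the highest 5% of UMI totals 1.56 or 9.55% in anagen and 2.13 or 13.5% in catagen, and without cells holding KRT79, a setting chosen after seeing the data, 0.174 or 1.12% in telogen.

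The count of genes at least 2-fold lower in late than in early cells became 41 lower in anagen with KRT1 and KRT10 at 3%, 28 lower in anagen with at least 5 KRT77 UMIs, 37 lower in anagen and 19 in all 3 libraries with the mean of cell CPM, 47 lower in catagen with median-of-ratios scaling and 63 lower in anagen, 50 in catagen and 27 in all 3 libraries without the deepest cells. KRT77 judged by its share gave 231 higher in telogen, with 44 lower in anagen, 138 in telogen and 20 in all 3 libraries. Thinning to 3000 UMIs leaves 57, 179 and 16 late cells and gave 172 higher in anagen and 510 in telogen, with 185 lower in anagen, 67 in catagen, 465 in telogen and 20 in all 3 libraries, and of the 80 genes then higher in all 3 libraries 48 were among the 69. Adding 1 CPM in place of 10 gave 40 lower in anagen, 54 in catagen, 107 in telogen and 21 in all 3 libraries, and adding 50 CPM gave 41 higher in anagen, 72 in catagen, 55 in telogen and 25 in all 3 libraries, with 2 lower in anagen, 8 in catagen, 19 in telogen and 1 in all 3 libraries. A 50 CPM minimum, which leaves fewer genes, gave 114 higher in catagen and 96 in telogen, with 43 lower in telogen. Without cells holding KRT79 there were 226 higher in telogen, with 35 lower in anagen. Between late cells of 2 libraries, thinning gave 452 higher and 362 lower for catagen over anagen, 1213 higher and 931 lower for telogen over anagen, 1089 higher and 943 lower for telogen over catagen. Adding 1 CPM gave 336 higher for catagen over anagen, 276 higher for telogen over anagen, 451 lower for telogen over catagen, adding 50 CPM gave 33 higher and 68 lower for catagen over anagen, 47 higher and 83 lower for telogen over anagen, 75 higher and 70 lower for telogen over catagen and a 50 CPM minimum gave 121 lower for catagen over anagen, 178 lower for telogen over catagen. The causes of these moves were not tested.

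Of the list medians, taken over genes as means of the 3 libraries, the desquamation list was at 1.84, the envelope list at 1.47, the lipid list at 1.25, the EGF family at 0.80, the immediate early list at 0.13 and the basal list at -1.21. They became 2.29 (desquamation) against early cells without KRT77, 1.26 (desquamation) and -1.64 (basal) after thinning, -1.496 (basal) with 1 CPM added, 0.90 (envelope), 1.42 (desquamation), 0.83 (lipid) and -0.72 (basal) with 50 CPM added, 0.79 (envelope), 0.46 (desquamation), 0.55 (lipid), -0.58 (basal) and 0.31 (EGF) with no filter, which adds genes near 0, 1.35 (EGF) with a 50 CPM minimum, -1.57 (basal) without the deepest cells and 0.26 (immediate early) without cells holding KRT79. Shares, counts and medians of the lists followed that are not named beside an alternative moved little. A count moved by at most 1.5 times, and the others by no more than their interval or spread.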
